A study of Mus musculus with 2 samples.

Results

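Ketone bodies are small fuels that liver mitochondria make from acetyl-CoA when fatty acids are burnt in excess of need. Acetyl-CoA is first joined to itself by a thiolase, further steps give acetoacetate, and a dehydrogenase reduces acetoacetate to 3-hydroxybutyrate, which is exported by monocarboxylate carriers and used in other organs. Hepatocytes are known for making ketone bodies and for having little of the CoA transferase that uses them. The genes described here are 5 of the 36808 in the deposited table, taken by their symbol: Acat1, the mitochondrial acetoacetyl-CoA thiolase, Bdh1, the mitochondrial 3-hydroxybutyrate dehydrogenase, Bdh2, a cytosolic dehydrogenase of the same short-chain superfamily, Slc16a6, a carrier needed for ketone body export from the liver in zebrafish, and Oxct1, the CoA transferase of ketone use. They were chosen by their pathway with the FPKM values of this comparison known, so those values are given as a description.

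RNA was sequenced from primary hepatocytes of C57Bl6 mice, liver parenchymal cells kept in William E medium with FBS, insulin and dexamethasone. One library came from cells given GW3965 at 1 µM, which activates the liver X receptors (LXR), nuclear receptors for oxysterols, and the other from cells given the solvent DMSO. With 1 library per group no difference has a replicate check, and what separates the cultures themselves and what GW3965 did cannot be told apart. The second library carries the letters GL in the table and was taken to be GW3965, the only other sample of the labels, so this assignment is not certain. Insulin was in the medium of both cultures.

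Sequence around the starts of the dehydrogenase genes is shown because Bdh1 is the member on which the results turn. RefSeq windows were matched to 3 of the 5 genes, each with 250 bases before and 50 after an annotated start, on GRCm38.p6, whereas the deposited positions are on mm9. Bdh1 has windows at 2 starts. The first is chr16:31422047-31422346 and the second chr16:31428503-31428802, both on the plus strand, and the window of Bdh2 is chr3:135280971-135281270, plus strand. Capitals mark nuclear receptor half-sites on either strand, searched as the letters AGGTCA, as the variant GGGTCA and as the variant AGTTCA.
Bdh1, first start: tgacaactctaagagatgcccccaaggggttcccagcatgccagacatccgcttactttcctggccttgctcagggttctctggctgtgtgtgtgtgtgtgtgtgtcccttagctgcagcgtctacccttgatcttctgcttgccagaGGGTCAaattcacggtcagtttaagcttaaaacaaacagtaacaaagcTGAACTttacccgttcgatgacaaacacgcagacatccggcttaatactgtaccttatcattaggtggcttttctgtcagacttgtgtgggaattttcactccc
Bdh1, second start: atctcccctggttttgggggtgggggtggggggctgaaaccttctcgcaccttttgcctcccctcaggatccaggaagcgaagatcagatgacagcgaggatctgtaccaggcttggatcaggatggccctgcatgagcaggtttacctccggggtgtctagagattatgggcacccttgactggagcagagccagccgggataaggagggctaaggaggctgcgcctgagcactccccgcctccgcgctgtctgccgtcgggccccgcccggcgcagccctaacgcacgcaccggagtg
Bdh2: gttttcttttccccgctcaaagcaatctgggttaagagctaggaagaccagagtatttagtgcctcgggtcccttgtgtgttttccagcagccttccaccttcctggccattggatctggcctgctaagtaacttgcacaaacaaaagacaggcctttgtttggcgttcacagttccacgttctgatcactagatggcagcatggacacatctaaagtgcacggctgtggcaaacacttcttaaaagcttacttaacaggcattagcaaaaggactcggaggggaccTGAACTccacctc

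The first Bdh1 window held 2 half-sites, GGGTCA once and AGTTCA once on the other strand, and the second held 0. The Bdh2 window held 1, an AGTTCA on the other strand close to its end. The window of Oxct1, not printed here, also held 1, a GGGTCA on the other strand. Of 32851 windows of this length, 13.7% held GGGTCA, 14.0% held AGTTCA and 16.3% held AGGTCA. The direct repeats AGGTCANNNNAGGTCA, the spacing known for LXR, and AGGTCANAGGTCA, the spacing known for PPAR, were found in 0.0152% and 0.0396% of all windows. They were found in 0 of the windows of Bdh1, Bdh2 and Oxct1. The second Bdh1 window had a GC content of 63.7%, against 48.3% in the first and 48.7% in the Bdh2 window. These matches describe letters in a window and nothing else.

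The level of each gene is given as FPKM, the authors' fragment number scaled to transcript length and library size, which can be compared between genes. All 5 genes reached 1 FPKM in either library, the minimum used here, as did 11796 genes of the table. A log2 ratio below is that of FPKM + 1 in the GW3965 library to FPKM + 1 in the DMSO library, which makes differences of low genes look smaller, and 1.5-fold on this scale is the size threshold. Bdh1 alone of the 5 passed it, on the lower side, where 1.33% of all genes at the minimum lie, and 0 of the 5 passed it on the higher side, where 1.02% lie. The other 4 genes lay between -0.16 and 0.16, around a median of 0.011 over all genes.

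**Figure D1:**
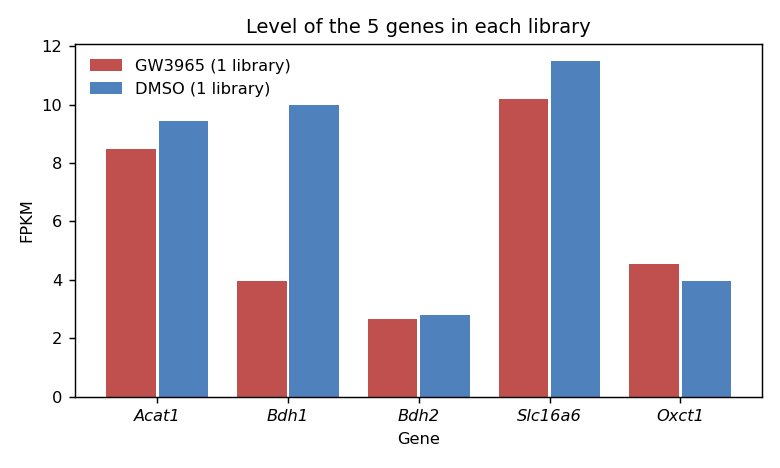
Level of each of the 5 genes in FPKM on the vertical axis, with a bar for the GW3965 library on the left and one for the DMSO library on the right of each pair. The bars of Bdh1 stand at 3.97 in GW3965 and 10.0 in DMSO, and those of each other gene are within 1.15-fold of each other.

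Acat1, which makes acetoacetyl-CoA for ketone bodies and splits the last intermediate of isoleucine breakdown, had 8.47 FPKM in GW3965 and 9.43 FPKM in DMSO. The log2 ratio was -0.14, and 18.1% of genes at the minimum had a ratio that low or lower. Acat1 lies on chromosome 9 from 53388627 to 53418487 in mm9 (ENSMUSG00000032047). Its 1 transcript of the GENCODE basic set, of 3405 bases in 12 exons, shares no exon with another gene. The symbol should not be read as the sterol acyltransferase once known by the same letters, which is a different gene.

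Bdh1 interconverts acetoacetate and 3-hydroxybutyrate at the inner mitochondrial membrane, where it needs phosphatidylcholine. It had 3.97 FPKM in GW3965 and 10.0 FPKM in DMSO, that is, it was 2.53-fold lower in the GW3965 library without a pseudocount and had a log2 ratio of -1.15 with it. By ratio it was 45th from the bottom of the 11796 genes at the minimum. Among the 11010 that GENCODE M21 lists as protein-coding, a set without genes whose identifier it lacks, Bdh1 was the 4th from the bottom. Its level stood above 23.3% of genes in GW3965, counting ties, and above 46.1% in DMSO.

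The authors' deposited table gives Bdh1 p = 1.17e-05 and q = 0.00638 and calls it, 9th by q among 18 lower genes. In the authors' deposited table such lower calls make up 0.119% of the 15090 genes tested, and 1 of the 5 genes described here is among them. That test compares 2 libraries, not the conditions. Bdh1 lies on chromosome 16 from 31422366 to 31458987 in mm9 (ENSMUSG00000046598). It has 3 GENCODE basic transcripts of 1496 to 3122 bases. The noncoding gene Gm15743 lies antisense to it and shares 533 of its 3648 exonic bases, or 14.6%. Gm15743 was listed at 0 in both libraries. Of the 25-base words in Bdh1 transcripts, 13.0% also occur in another gene. The sources used here do not state that counting used strand. Reads of the shared bases therefore cannot be assigned with certainty, and the level of Bdh1 carries this limit.

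Bdh2 shares the dehydrogenase name with Bdh1 but is cytosolic and has also been linked to iron handling. It had 2.65 FPKM in GW3965 and 2.79 FPKM in DMSO, a log2 ratio of -0.05. The level of Bdh1 was 1.5 times that of Bdh2 in GW3965 and 3.59 times in DMSO. Bdh2 lies on chromosome 3 from 134944185 to 134967390 in mm9 (ENSMUSG00000028167) and shares no exon with another gene. The coding sequence of Bdh2 is 765 bases, against 1029 for Bdh1.

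Slc16a6, the export carrier, had 10.2 FPKM in GW3965 and 11.5 FPKM in DMSO, a log2 ratio of -0.16, and was the most abundant of the 5 genes in both libraries. It lies on chromosome 11, in a locus from 109287260 to 109434644 in mm9 (ENSMUSG00000041920) that the table also assigns to Arsg and Amz2. On GRCm38 the exons of Slc16a6 overlap those of Amz2, on the opposite strand, over 611 of 4529 bases, and those of Arsg over 48. Of the 25-base words in its transcripts, 22.8% also occur in another gene. The sources used here do not state that counting used strand, so reads of these stretches cannot be told apart and the level of Slc16a6 is uncertain. Amz2 had 18.3 FPKM in GW3965 and 17.7 FPKM in DMSO, and Arsg had 9.57 FPKM in GW3965 and 11.6 FPKM in DMSO.

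Oxct1, succinyl-CoA:3-ketoacid CoA transferase, had 4.56 FPKM in GW3965 and 3.96 FPKM in DMSO. Its log2 ratio of 0.16 was the highest of the 5, and 85.8% of genes at the minimum had a ratio that low or lower. Acat1 exceeded it 1.86 times in GW3965 and 2.38 times in DMSO. The gene lies on chromosome 15, in a deposited locus from 3971686 to 4105344 in mm9 (ENSMUSG00000022186), which overlaps those of Gm15632 and BC037032. The antisense transcript BC037032 overlaps 13.2% of the exonic bases of Oxct1 and was listed at 0.00333 FPKM in GW3965 and 0.0319 FPKM in DMSO. Of the 25-base words in Oxct1 transcripts, 12.0% also occur in another gene, and the same uncertainty of strand holds for Oxct1. Of its testis relatives, Oxct2b had 0.582 FPKM in GW3965 and 0.496 FPKM in DMSO, and Oxct2a was at 0.00793 FPKM in GW3965 and listed at 0 in DMSO.

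The order of the levels differed between the libraries in the place of Bdh1. In GW3965 the order was Slc16a6, Acat1, Oxct1, Bdh1 and Bdh2. In DMSO Bdh1 stood 2nd, between Slc16a6 and Acat1, and the other 4 kept their order. With 1 library per group there is no spread to set neighbours apart, and Slc16a6, Bdh1 and Acat1 lay close to each other in DMSO. The level of Bdh1 was 0.468 times that of Acat1 in GW3965 and 1.06 times in DMSO, and it was 0.871 times that of Oxct1 in GW3965 and 2.53 times in DMSO.

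Error was described in 2 ways, neither of which holds a difference between cultures. The first takes the standard error that the authors' score implies for the log2 fold without a pseudocount. For Bdh1 the log2 fold was -1.34 with a standard error of 0.31 and a 95% interval of -1.94 to -0.74. The intervals of the other 4 genes spanned 0, from -0.88 to 0.57 for Acat1, from -0.88 to 0.74 for Bdh2, from -1.46 to 1.11 for Slc16a6 and from -0.81 to 1.21 for Oxct1. They are wide enough to hold a 1.5-fold difference in at least one direction for each of these genes, so no statement that their levels were equal can be made.

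The second way takes fragments estimated from the steps between low FPKM values, which placed the libraries at about 75300000 fragments for GW3965 and 60600000 for DMSO. At its shortest transcript Bdh1 then rested on about 447 fragments in GW3965 and 908 in DMSO. The 95% interval of the log2 fold from counting alone was -1.5 to -1.17, approximate because the fragments are estimates. Bdh2, the least covered, rested on about 211 fragments in GW3965 and 179 in DMSO, with an interval of -0.37 to 0.22. Counting intervals of Acat1 (-0.24 to -0.07), Slc16a6 (-0.27 to -0.08) and Oxct1 (0.02 to 0.39) did not reach 0. The interval from the authors' score was 8.53 times as wide for Acat1, 13.5 times for Slc16a6, 5.46 times for Oxct1 and 3.64 times for Bdh1.

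**Figure D2:**
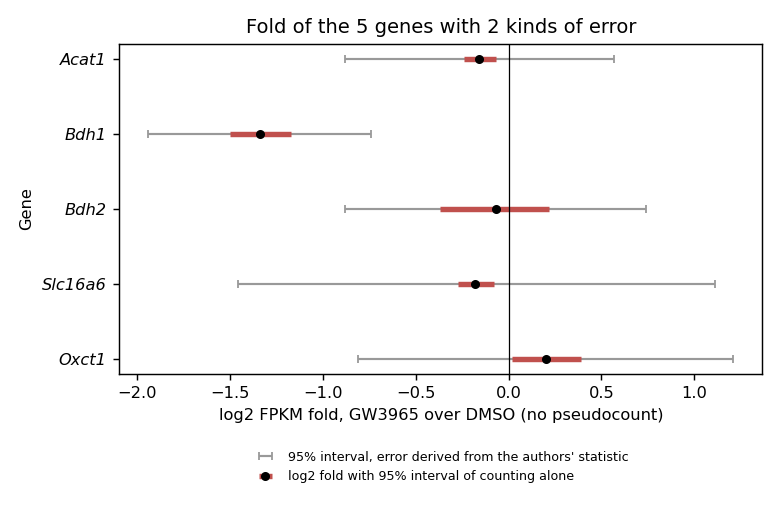
Log2 FPKM fold of GW3965 over DMSO without a pseudocount on the horizontal axis, 1 gene per row. Points are folds, thick bars 95% intervals of counting alone, and thin bars 95% intervals from the error implied by the authors' statistic. Bdh1 at -1.34 has both intervals below 0, and the thin bars of the other 4 genes cross 0.

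**Figure D3:**
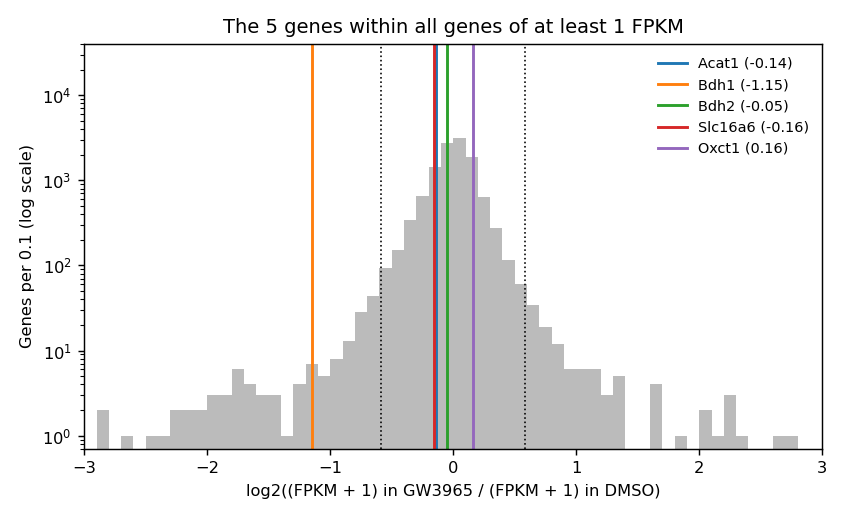
Number of genes per 0.1 of the log2 ratio with pseudocount 1, on a log scale, over the 11796 genes of at least 1 FPKM in either library. Coloured lines mark the 5 genes and dotted lines 1.5-fold. Bdh1 stands in the lower tail at -1.15, the other 4 lines lie between -0.16 and 0.16, and 10 genes beyond 3 in size are outside the axis.

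Genes with the most similar pair of levels were sought for each member, by the distance in log2(FPKM + 1) over the 2 libraries. For Bdh1 they were the joint entry Cox16,Synj2bp with 3.81 FPKM in GW3965 and 10.7 FPKM in DMSO (distance 0.0996) and the chemokine gene Ccl20 with 4.22 FPKM in GW3965 and 9.22 FPKM in DMSO (distance 0.131). For the other 4 genes the nearest entries were Smpd2 for Acat1, Zfhx3 for Bdh2, Rilpl1 for Oxct1 and Mtg1 for Slc16a6, at distances of 0.00789 to 0.0114. A pattern over 2 libraries holds little beyond level and ratio.

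The fatty acid oxidation genes that supply acetyl-CoA were a list of 15, all at the minimum. Of these, 14 had a ratio below 0, against 47.1% of all genes, the median was -0.19, and 1 passed 1.5-fold. That gene was Cpt1a, which admits long-chain fatty acids to mitochondria, with 12.2 FPKM in GW3965 and 19.6 FPKM in DMSO (-0.65). Hadh, the short-chain 3-hydroxyacyl-CoA dehydrogenase, followed with 20.0 FPKM in GW3965 and 29.1 FPKM in DMSO (-0.52). In the authors' deposited table Cpt1a had q = 0.0574 and Hadh q = 0.518, and 0 of the 15 genes were called. Lower calls make up 0.119% of all genes tested there, so this count says little for a list of 15. The remaining genes lay between -0.29 and 0.14, with Acaa2, the medium-chain thiolase, lowest among them and Echs1, the enoyl-CoA hydratase, highest.

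Regulators and fasting genes numbered 9, of which 7 reached the minimum, with a median of -0.09 and 0 past 1.5-fold. Creb3l3, which encodes the liver transcription factor CREBH, had 3.49 FPKM in GW3965 and 5.67 FPKM in DMSO (-0.57). Ppara, the receptor that drives fasting ketogenesis, had 1.46 FPKM in GW3965 and 1.82 FPKM in DMSO (-0.19). Fgf21, a fasting hormone, was below the minimum at 0.164 FPKM in GW3965 and 0.286 FPKM in DMSO. Angptl4 and Pdk4, both PPAR targets, stood at -0.09 and 0.08. Of 2 genes taken as ketone body receptors, Ffar3 was at 0 in both libraries and Hcar2 had no value under that symbol.

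Competing uses of acetyl-CoA or acetoacetate were a list on which 5 of the 5 genes reported at the minimum had ratios above 0. Of all genes, 47.1% had a ratio below 0. The median of the list was 0.53 and 0 passed 1.5-fold. Acly, also on this list, makes cytosolic acetyl-CoA from citrate rather than using it. Aacs, which activates acetoacetate in the cytosol for lipid synthesis, had 38.0 FPKM in GW3965 and 26.8 FPKM in DMSO (0.49). Acat2, the cytosolic counterpart of Acat1 that feeds sterol synthesis, had 38.6 FPKM in GW3965 and 26.4 FPKM in DMSO (0.53). Acly and Acaca, of fatty acid synthesis, stood at 0.56 and 0.57. Citrate synthase, Cs, had 73.2 FPKM in GW3965 and 66.1 FPKM in DMSO (0.14). For folds without a pseudocount, 95% intervals from the authors' score spanned 0 for Acaca (-0.94 to 2.16), Acly (-0.15 to 1.29) and Cs (-0.22 to 0.51). Those of Aacs (0.1 to 0.91) and Acat2 (0.16 to 0.94) lay above 0. The authors' deposited table gives q = 0.922 for Aacs and q = 0.571 for Acat2, with no call. The list of ketone use, Oxct1, Oxct2a, Oxct2b, Aacs and Acat1, had 3 genes at the minimum, 0 of them past 1.5-fold, and a median of 0.16. The authors' deposited list of calls held 0 genes of either list, which says little for lists this short. Lower calls make up 0.119% of the genes tested there, and the share of higher calls is not given here.

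**Figure D4:**
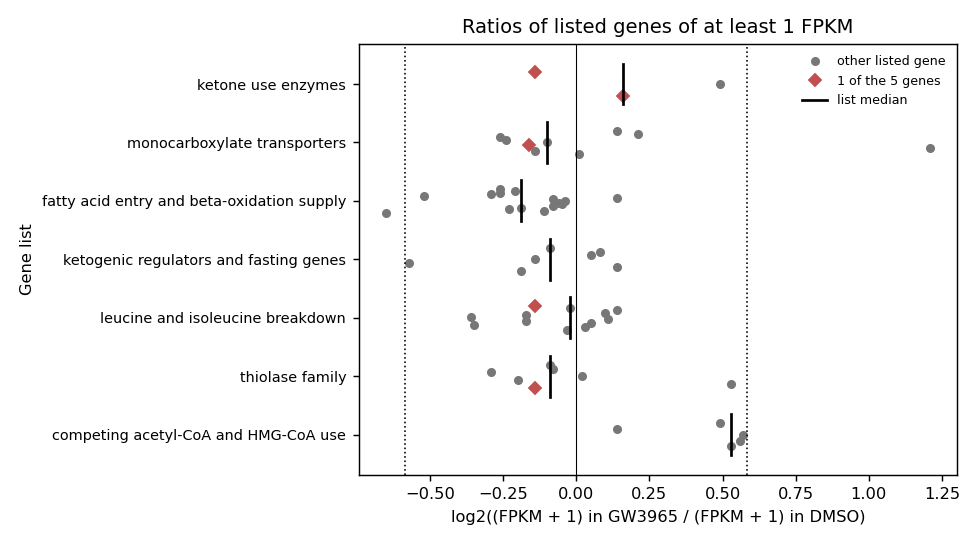
Log2 ratio with pseudocount 1 of each listed gene of at least 1 FPKM, 1 list per row. Diamonds are those of the 5 genes on each list, circles the other genes, vertical bars list medians and dotted lines 1.5-fold. The supply genes centre on -0.19 and the list of competing uses, which includes Acly, on 0.53.

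Among carriers, Slc16a6 was read against the other monocarboxylate transporters. Slc16a1, the broad lactate and ketone body carrier MCT1, had 22.8 FPKM in GW3965 and 22.7 FPKM in DMSO (0.01), which is 2.23 times the level of Slc16a6 in GW3965 and 1.97 times in DMSO. Its chaperone Bsg had 650 FPKM in GW3965 and 591 FPKM in DMSO (0.14). Slc16a3, the lactate exporter MCT4, had 34.3 FPKM in GW3965 and 14.3 FPKM in DMSO (1.21), and was the 1 gene of the list past 1.5-fold. The authors' deposited table gives Slc16a3 p = 0.0363 and q = 1 after rounding, with no call. Slc16a7, the high-affinity carrier MCT2, was under the minimum at 0.656 FPKM in GW3965 and 0.975 FPKM in DMSO. Of the 16 listed genes 9 were at the minimum, with a median of -0.10, which was -0.045 at a minimum of 5 FPKM and -0.013 without one.

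**Figure D5:**
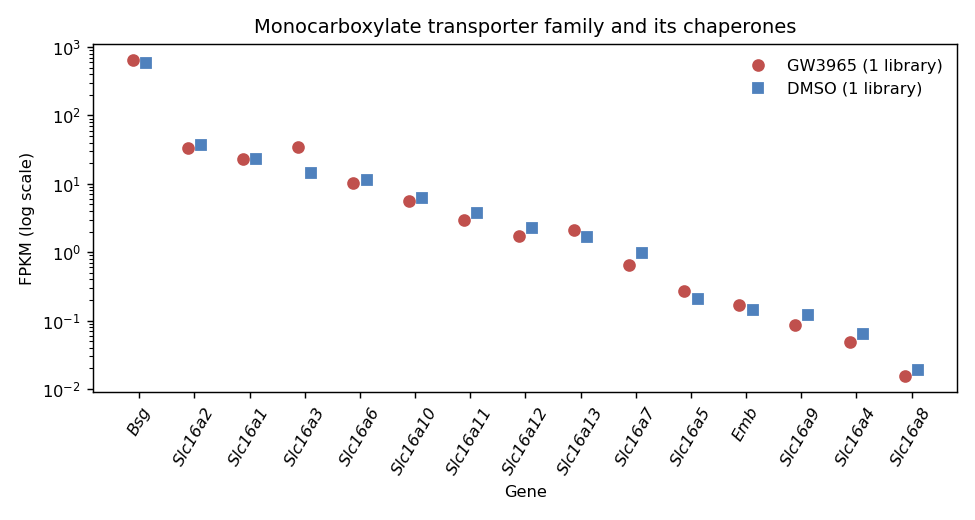
FPKM on a log scale of the transporter list, for genes above 0 in both libraries, with GW3965 circles left of DMSO squares. Slc16a3 at 34.3 in GW3965 and 14.3 in DMSO is the widest pair among the genes of at least 1 FPKM.

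In bulk RNA fewer cells of a type and less RNA per cell cannot be told apart, and Oxct1 is known from cells other than hepatocytes, so cell type markers are set beside these results. Hepatocyte markers summed to 1160 FPKM in GW3965 and 1120 FPKM in DMSO over 9 genes, 8 at the minimum with a median of 0.11. Apoa1, Apob and Ttr made up most of both sums, so the sums say little of the lower markers. Cps1, with the highest ratio of the 8 (0.31), had 2.1 FPKM in GW3965 and 1.5 FPKM in DMSO. Cyp2e1 had 6.9 FPKM in GW3965 and 6.53 FPKM in DMSO (0.07). Of the 8 markers, 6 had a ratio above 0 and 2 below. Hnf4a was the lowest, with 37.4 FPKM in GW3965 and 49.4 FPKM in DMSO (-0.39). Tat, the tyrosine aminotransferase and the marker below the minimum, had 0.447 FPKM in GW3965 and 0.962 FPKM in DMSO, a log2 fold of -1.10 without a pseudocount. Alb was left out because it was marked for too many fragments. Endothelial markers summed to 222 FPKM in GW3965 and 194 FPKM in DMSO (8 of 8 genes at the minimum, median 0.19, or 0.11 without Pecam1, whose test failed in the authors' table). Clec4g, a lectin of liver sinusoidal endothelium, had 0.996 FPKM in GW3965 and 2.14 FPKM in DMSO, a log2 ratio of -0.66, and was the 1 marker of these lists past 1.5-fold. Stellate and fibroblast markers summed to 97.8 FPKM in GW3965 and 91.7 FPKM in DMSO (9 of 10, median 0.15). Macrophage markers summed to 203 FPKM in GW3965 and 196 FPKM in DMSO (6 of 9, median -0.08, but 0.08 at a minimum of 5 FPKM), and cholangiocyte markers, nearly all Spp1, to 3390 FPKM in GW3965 and 4150 FPKM in DMSO (3 of 6, median 0.07). In these lists 0 markers were at 0 in both libraries. The part of other cell types in the ratios of Bdh1 and Oxct1 was not tested.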

How the data were processed

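The authors deposited 1 gene table with FPKM of each library, a log2 fold, a test score of opposite sign to the fold, and p-value and q-value columns, per the file headers. Per the submitters' processing notes CASAVA, TopHat2 2.0.6, Cufflinks 2.0.2, Cuffdiff and the builds mm9 and NCBIM37 were used, and settings, strand and scaling are not stated there. The 7 genes marked for too many fragments were left out. Starts count from 0 in the table, since 58.5% of 19844 single-gene loci then have the GENCODE M21 length, against 1.53% otherwise, and 1 was added.

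The members and lists were chosen with earlier results of these data known, and some genes of the lists are not reported here. Named genes are the members, listed genes, genes sharing a locus and the 2 nearest tested genes per member, without predicted names. A threshold of 1.5-fold, a minimum of 1 FPKM and a pseudocount of 1 were used. Marker lists were for hepatocytes, macrophages, stellate cells, endothelium and cholangiocytes. Standard errors were the log2 fold over the score, both in size. The score returned the deposited p-value within 1% for 99.1% of 15090 genes. Relative depth was the most frequent FPKM ratio of 2565 genes under 0.1 FPKM, 1.24, and scale came from genes with 1 transcript. Counting intervals are exact (Clopper-Pearson) for the estimated fragments and cover counting error only, not error in the depth or in the transcript length. The fold rule and depth steps were tested on simulated data that held counting error only and used the same transcript lengths. Errors of length and differences between cultures were not part of that check. Alternatives were other pseudocounts, minimums, thresholds and scalings. Computing used matplotlib 3.10.9, scipy 1.17.1, pandas 2.3.3, numpy 2.4.6 and Python 3.11.15.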

Additional observations from a re-analysis of the deposited data

How the results depend on the processing

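No paired analysis was possible because a group is a single library. The log2 ratio of Bdh1 was -1.32 with a pseudocount of 0.1 and -0.74 with 5, and stayed past 1.5-fold on the lower side under each pseudocount, centring and scaling tried. The ratios of Acat1, Bdh2, Oxct1 and Slc16a6 moved by less than their counting intervals under these. Over all genes, 194 were higher and 320 lower with a pseudocount of 0.1, 56 and 56 with 5, and 39 and 55 at 2-fold, and 82 were lower at a minimum of 5 FPKM. Higher genes were 43.3% of those past the threshold, 37.7% with a pseudocount of 0.1 and 51.5% at a minimum of 5 FPKM. With a pseudocount of 0.1, 1 gene of the regulators passed on the lower side and 1 of the competing uses on the higher side. With 5, as at 2-fold, 0 oxidation genes passed. In those 2 settings 0 endothelial markers passed, so Clec4g did not. At a minimum of 5 FPKM, which Clec4g does not reach, 0 endothelial markers passed either. The median of the competing uses was 0.45 with a pseudocount of 5, and that of the endothelial markers was 0.13. At a minimum of 5 FPKM the median was -0.045 for the transporters, 0.08 for macrophage, 0.26 for stellate and 0.27 for endothelial markers. Without a minimum it was -0.013 for the transporters, 0.081 for ketone use, -0.14 for the regulators, 0.07 for hepatocyte, 0.099 for stellate and 0.021 for cholangiocyte markers. Among genes the authors tested it was 0.11 for endothelial markers. A pseudocount shrinks ratios of low genes by its construction; for other settings the cause was not tested. Depth limits Bdh2 most among the 5 genes.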

Other observations

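Breakdown of leucine and isoleucine yields ketone body precursors, and Acat1 takes part in the isoleucine branch. Of 12 genes reported from this list, all at 1 FPKM or more, 7 had a ratio below 0, the median was -0.02 and 0 passed 1.5-fold. Mccc2, a subunit of methylcrotonyl-CoA carboxylase, stood at -0.36 and Bckdhb, of the branched-chain ketoacid dehydrogenase, at -0.35. Ivd, isovaleryl-CoA dehydrogenase, had 18.8 FPKM in GW3965 and 21.3 FPKM in DMSO (-0.17).

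Within the thiolase family of 7 genes, all at the minimum, 5 had a ratio below 0, with a median of -0.09. Scp2, which encodes a peroxisomal thiolase and sterol carrier, was the most abundant, at 98.1 FPKM in GW3965 and 105 FPKM in DMSO (-0.09). Acat2 at 0.53 was the highest ratio of the family and Acaa2 at -0.29 the lowest.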
